A study of Mus musculus with 4 samples.

Results

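The genes described here are 10 antiviral genes induced by type I interferon, namely Ifit1, Ifit2, Ifit3, Oas1a, Oasl1, Oasl2, Rsad2, Usp18, Isg15 and Ifi27, measured in mouse liver. They were taken as the probe sets that the platform annotation gives to 1 of these symbols alone. This left 9 genes with 12 probe sets, of 18193 genes with a single symbol, and all 9 were among the 12493 genes that entered the comparisons. Isg15, a ubiquitin-like protein that is joined to other proteins, has no probe set with a single symbol and has no value here. The liver RNA came from male mice, with 1 Affymetrix 3' expression array for each of 4 groups: LASS2-/- mice on a high-fat diet (HFD), wild-type (WT) mice on HFD, LASS2-/- mice on chow and WT mice on chow. Feeding of HFD, with 60% of calories from fat, or chow, with 10%, began when the mice were 3 weeks old. Not stated in the labels were the strain, the age at collection, how the LASS2 allele was made and the number of mice behind each array. LASS2 is the older name of Cers2, a ceramide synthase for very-long-chain ceramides.

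Type I interferons bind the receptor made of Ifnar1 and Ifnar2, whose Janus kinases switch on a transcription factor complex that contains Stat2 and Irf9. That complex binds the interferon-stimulated response element (ISRE) in the promoters of antiviral genes. In liver, hepatocytes as well as resident macrophages and other non-parenchymal cells can respond in this way. The products act at different steps. The Ifit proteins bind viral RNA, Oas1a makes the messenger that activates a ribonuclease, Rsad2 (viperin) disturbs viral replication, and Usp18 removes Isg15 from proteins and dampens receptor signalling.

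The 4 groups have no replicates, so no difference below has an error between animals, and group, animal and array cannot be told apart. Values are log2 signals of the deposited table, on which a difference of 1 is a doubling. The targeted gene Cers2 gave a signal of 12.32 log2 for the array labelled LASS2-/- HFD and 12.25 for WT HFD, and of 12.32 for LASS2-/- chow and 12.46 for WT chow. It was thus not lower on both arrays labelled LASS2-/-. The position of the probe set within the transcript was not known here, so the genotypes are given below as labelled and every direction between them rests on these labels. The hepatocyte markers were bright on all 4 arrays, with Apoa1 between 15.53 and 15.77.

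The promoters are shown because the ISRE is the sequence through which these genes are known to respond, and the 5 printed are the 4 genes with the widest range over the arrays among those with a window, together with Ifit3 as the exception described below. RefSeq promoter windows on GRCm38.p6, from 250 bases before to 50 bases after a transcript start, were given for 7 of the 9 measured genes. The ISRE core GAAANNGAAA was searched on both strands, with overlapping matches allowed, and capitals mark it. It was found in 4 genes, Ifit1, Ifit3, Oas1a and Rsad2, and not in Ifit2 (either of its starts), Oasl1 or Oasl2. Only exact matches inside these windows were counted, and an ISRE with other bases or farther away was not searched for. Of all 32851 windows, 3.44% held the exact core and 74 held more than 1 match. Ifit1 lies at chr19:34640639-34640938 (+ strand) and Ifit3 at chr19:34583279-34583578 (+ strand), and each has 2 matches on the opposite strand. Oas1a at chr5:120907476-120907775 (- strand) has 2 overlapping matches on its own strand. Rsad2 at chr12:26456403-26456702 (- strand) has 1 on the opposite strand. Oasl1 at chr5:114922990-114923289 (+ strand) has none.
Ifit1: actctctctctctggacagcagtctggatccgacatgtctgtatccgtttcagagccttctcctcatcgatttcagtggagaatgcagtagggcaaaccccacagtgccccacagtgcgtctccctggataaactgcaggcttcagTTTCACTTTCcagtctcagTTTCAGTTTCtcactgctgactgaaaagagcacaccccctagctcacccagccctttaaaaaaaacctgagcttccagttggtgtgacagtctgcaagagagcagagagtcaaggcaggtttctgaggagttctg
Ifit3: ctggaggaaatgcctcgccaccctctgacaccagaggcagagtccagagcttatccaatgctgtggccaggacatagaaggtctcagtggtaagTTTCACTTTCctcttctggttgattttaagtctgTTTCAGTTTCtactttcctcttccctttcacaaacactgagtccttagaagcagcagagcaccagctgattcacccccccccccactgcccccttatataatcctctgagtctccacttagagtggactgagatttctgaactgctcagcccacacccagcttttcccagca
Oas1a: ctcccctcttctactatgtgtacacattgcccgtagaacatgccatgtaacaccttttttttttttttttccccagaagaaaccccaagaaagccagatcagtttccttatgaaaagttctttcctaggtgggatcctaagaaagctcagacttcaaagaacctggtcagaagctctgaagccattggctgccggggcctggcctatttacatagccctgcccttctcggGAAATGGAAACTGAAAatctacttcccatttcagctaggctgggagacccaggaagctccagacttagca
Rsad2: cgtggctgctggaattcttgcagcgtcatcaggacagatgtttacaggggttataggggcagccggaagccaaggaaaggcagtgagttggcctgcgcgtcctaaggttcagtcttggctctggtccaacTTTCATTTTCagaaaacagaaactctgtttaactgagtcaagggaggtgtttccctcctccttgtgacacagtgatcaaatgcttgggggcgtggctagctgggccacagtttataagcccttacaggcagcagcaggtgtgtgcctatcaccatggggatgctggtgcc
Oasl1: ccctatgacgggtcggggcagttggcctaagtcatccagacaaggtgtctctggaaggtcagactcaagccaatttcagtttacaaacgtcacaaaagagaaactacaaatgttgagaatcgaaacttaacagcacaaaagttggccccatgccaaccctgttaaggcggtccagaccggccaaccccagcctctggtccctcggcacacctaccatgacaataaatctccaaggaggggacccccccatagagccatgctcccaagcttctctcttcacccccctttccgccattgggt

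**Figure D1:**
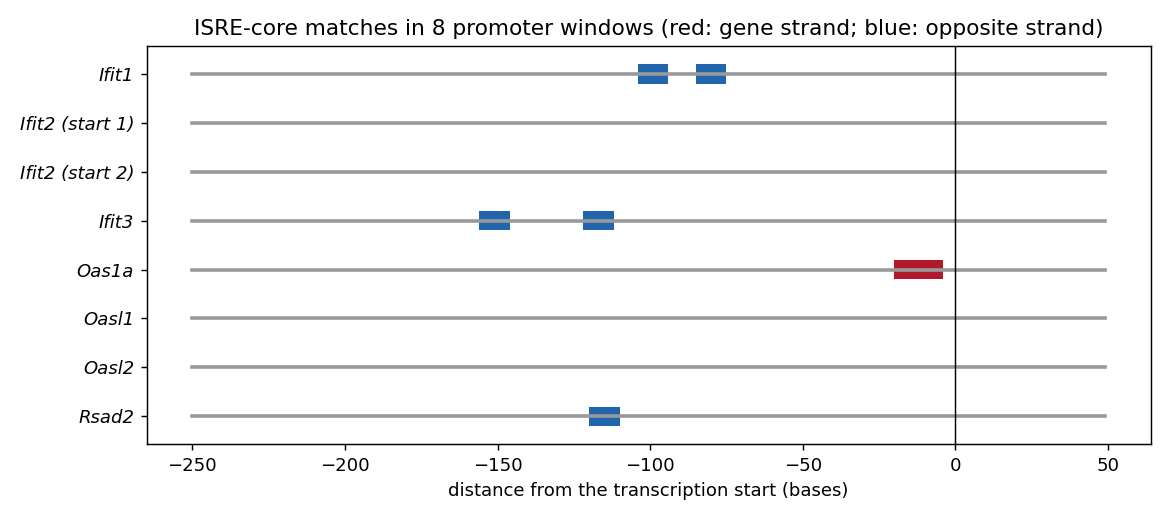
Positions of the ISRE core in the 8 promoter windows of the 7 measured genes that have one, against the distance from the transcription start in bases. Grey lines are the windows and boxes the matches, which begin between 156 and 20 bases before the start in Ifit1, Ifit3, Oas1a and Rsad2.

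The antiviral genes were highest on the array labelled LASS2-/- HFD. Of the 9 genes, 8 had their highest signal there, and Ifit3 was the exception. The share of all genes with their highest signal on this array was not counted, and the shares past 2-fold are given below. All 12 probe sets were brighter than the array median, which lay between 6.17 and 6.28, on every array, so no ratio of these 9 genes is a bound. In the other gene lists further below, some differences rest on a value raised to the array median.

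**Figure D2:**
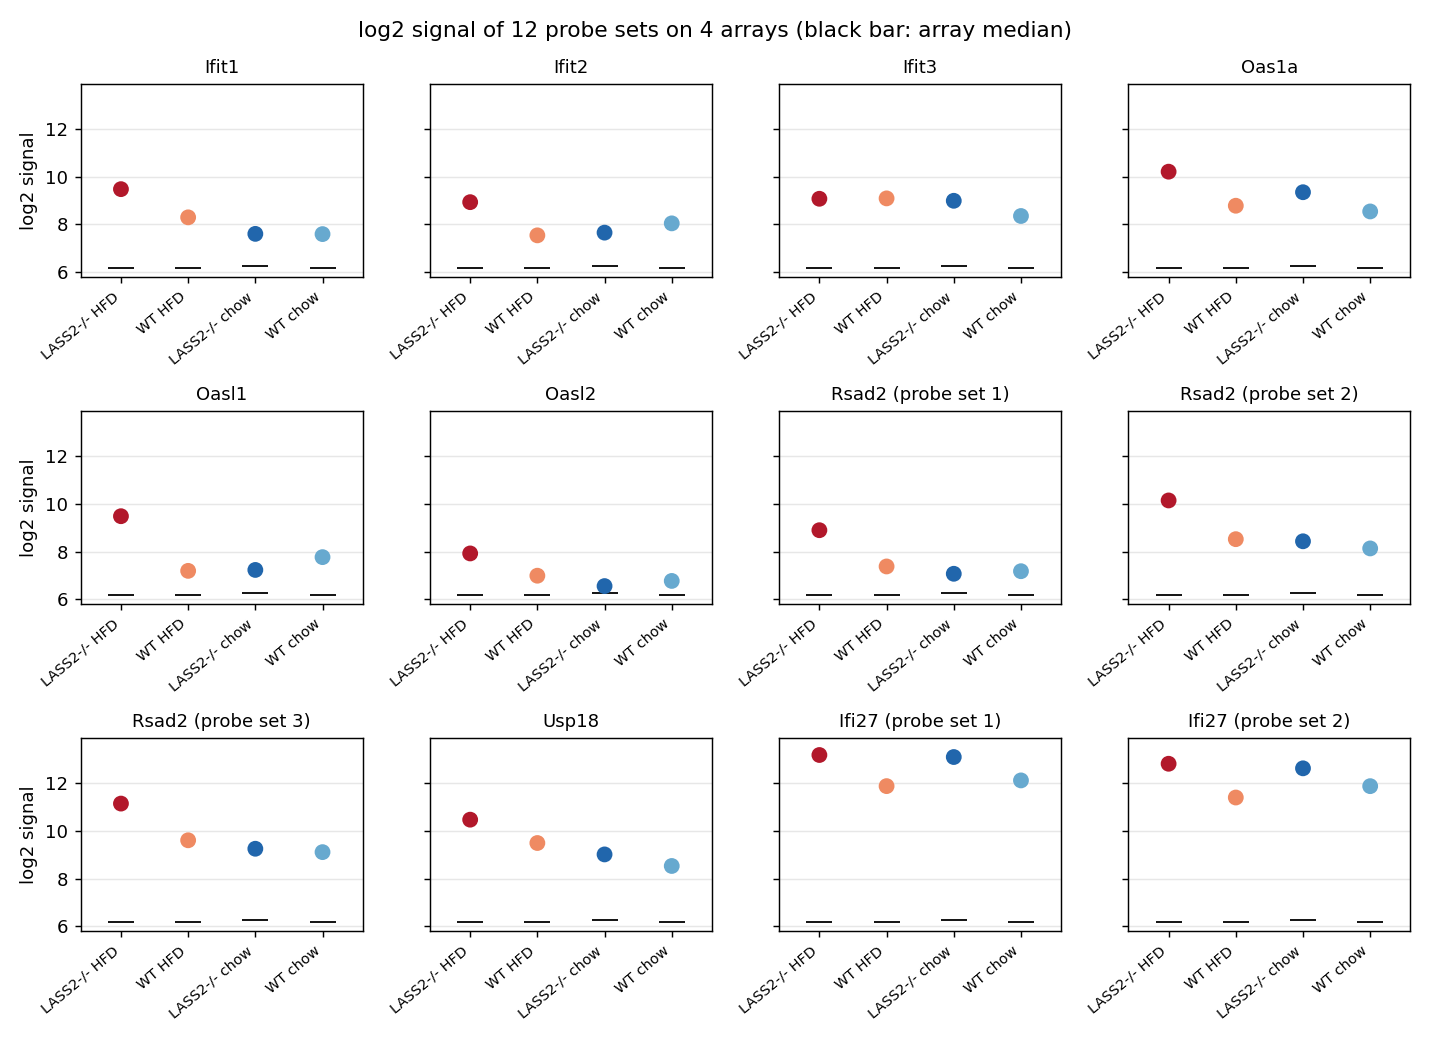
log2 signal (vertical axis) of the 12 probe sets of 9 antiviral genes on each of the 4 arrays, 1 point per array, with black bars at the array median. The array labelled LASS2-/- HFD is the highest in 11 of 12 panels, and in Ifi27 both arrays labelled LASS2-/- stand above both labelled WT.

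Among the Ifit genes, which lie close together on chromosome 19, the 3 members had different patterns. Ifit1 had a log2 signal of 9.48 on LASS2-/- HFD and 8.30 on WT HFD, and of 7.60 on LASS2-/- chow and 7.59 on WT chow. Its chow arrays were thus level, and both HFD arrays were brighter. Ifit2 had 8.93 on LASS2-/- HFD and 7.54 on WT HFD, and 7.66 on LASS2-/- chow and 8.04 on WT chow, so that only the first array stood out. Ifit3 had 9.08 on LASS2-/- HFD and 9.09 on WT HFD, and 8.99 on LASS2-/- chow and 8.35 on WT chow. Here it was the array labelled WT chow that was low while the other arrays lay within 0.10 of each other. Ifit1 and Ifit3 each have 2 ISRE cores in the windows printed above, and their genotype differences on HFD were 1.18 and -0.02.

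Oas1a, Oasl1 and Oasl2 belong to the oligoadenylate synthetase family. Oasl1 and Oasl2 carry ubiquitin-like domains, and mouse Oasl1 is known to restrain the translation of Irf7. Oas1a had a log2 signal of 10.21 on LASS2-/- HFD and 8.78 on WT HFD, and of 9.35 on LASS2-/- chow and 8.54 on WT chow, so both arrays labelled LASS2-/- were above both labelled WT. Oasl1 had 9.48 on LASS2-/- HFD and 7.19 on WT HFD, and 7.23 on LASS2-/- chow and 7.77 on WT chow. One array was high and the other 3 lay within 0.57 of each other. Oasl2 had 7.92 on LASS2-/- HFD and 6.99 on WT HFD, and 6.56 on LASS2-/- chow and 6.77 on WT chow, with the same array on top.

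Rsad2 was read by 3 probe sets. The brightest had a log2 signal of 11.15 on LASS2-/- HFD and 9.61 on WT HFD, and of 9.26 on LASS2-/- chow and 9.12 on WT chow. The others had the same array on top, and the 3 genotype differences on HFD lay between 1.52 and 1.62. On chow they lay between -0.11 and 0.30, so the direction there depended on the probe set. Usp18 had 10.48 on LASS2-/- HFD and 9.50 on WT HFD, and 9.02 on LASS2-/- chow and 8.54 on WT chow. It was higher on the array labelled LASS2-/- on each diet and on HFD in each genotype.

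Ifi27 encodes a small interferon-induced membrane protein. Its brighter probe set had a log2 signal of 13.19 on LASS2-/- HFD and 11.88 on WT HFD, and of 13.10 on LASS2-/- chow and 12.12 on WT chow. The other had 12.82 on LASS2-/- HFD and 11.40 on WT HFD, and 12.63 on LASS2-/- chow and 11.88 on WT chow. That set carries the suffix _s_at, which Affymetrix gives to probe sets that may read several transcripts. In both sets the arrays followed the genotype label, and the diets of 1 genotype were closer together than the genotypes on 1 diet.

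On HFD, 6 of the 9 genes were at least 2-fold higher on the array labelled LASS2-/- than on the array labelled WT, and 0 were 2-fold lower. Over all genes, 1.47% were 2-fold higher and 0.488% lower. The members were chosen with earlier results of these data known. This comparison with all genes, and those below, therefore describe the members and do not test them. The member median was 1.30 log2, against 0.00 over all genes. Oasl1 was 4.89-fold higher and the 14th of 12493 genes from the top. Rsad2 was 2.90-fold, Oas1a 2.69-fold, Ifit2 2.62-fold, Ifi27 2.47-fold and Ifit1 2.27-fold higher. Usp18 at 1.97-fold and Oasl2 at 1.91-fold lay just under the threshold, and Ifit3 had a log2 difference of -0.02. Among the 8592 genes with a mean signal in the members' range, from 7.06 to 12.57, the middle 95% of log2 differences ran from -0.60 to 0.81, and 8 of the 9 antiviral genes lay above it.

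On chow, 0 of the 9 genes reached 2-fold in either direction, where 1.16% of all genes were 2-fold higher and 0.424% lower. The member median was 0.14 log2 against 0.03 over all genes. Ifi27 was nearest, with a log2 difference of 0.98, followed by Oas1a with 0.81, Ifit3 with 0.64 and Usp18 with 0.48. Oasl1, Ifit2 and Oasl2 had values of -0.54, -0.39 and -0.22. Ifit1 had 0.01, which became -0.09 when the arrays were scaled to equal medians and -0.01 with quantile normalization. In the same range of signal, the middle 95% of chow differences ran from -0.65 to 0.71, and 2 antiviral genes, Ifi27 and Oas1a, lay above it. Scaling to equal medians moved every chow genotype difference by -0.10, which put the member median at 0.04 and that of all genes at -0.07.

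**Figure D3:**
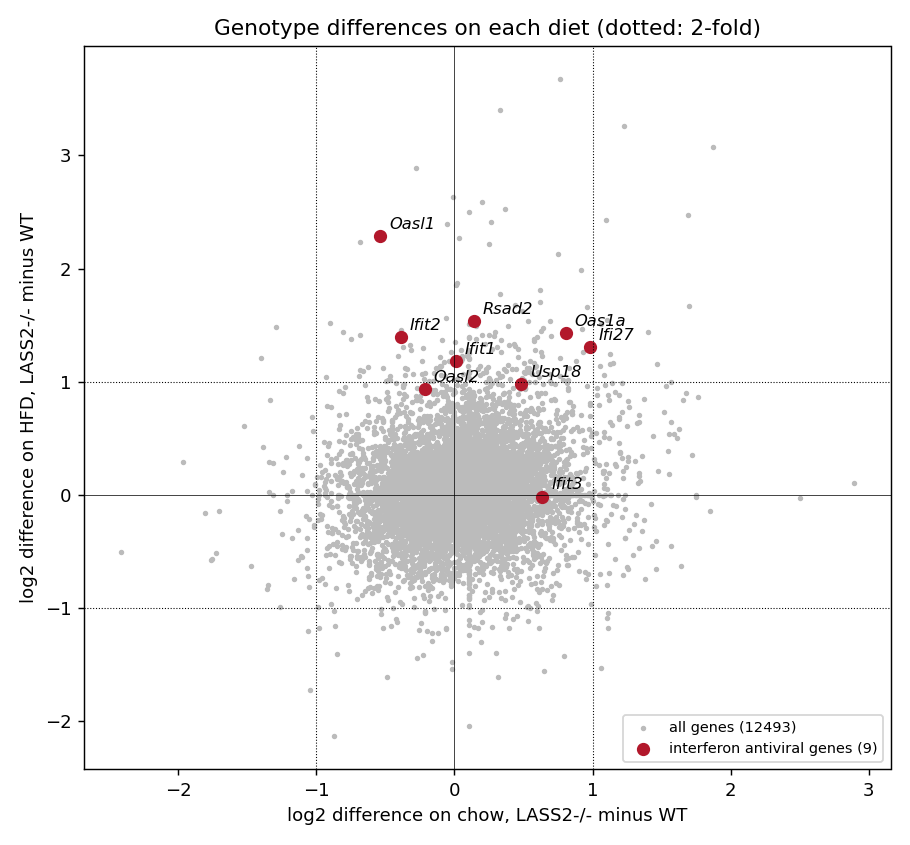
log2 genotype differences, LASS2-/- minus WT, on chow (horizontal axis) and on HFD (vertical axis) for all 12493 genes in grey and the 9 antiviral genes in red, with dotted lines at 2-fold. Of the 9 genes, 6 lie above the upper line and 0 lie beyond a vertical one.

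The genotype differences on the diets share no array. Their difference, HFD minus chow, was at least 1 log2 in 5 of the 9 genes, against 2.23% of all genes, and at most -1 log2 in 0 of 9, against 2.08%. Its median was 1.15 for the members and -0.01 for all genes. Oasl1 had 2.83, the 5th of 12493 genes from the top, Ifit2 1.78, Rsad2 1.40, Ifit1 1.17 and Oasl2 1.15. Oas1a had 0.62, Usp18 0.49, Ifi27 0.32 and Ifit3 -0.65. Since 1 array stands for each group, this difference has no error of its own and was not tested.

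Between the diets, 6 of the 9 genes were at least 2-fold higher on HFD than on chow in the arrays labelled LASS2-/-, where 3.11% of all genes were. In those labelled WT it was 0 of 9, against 2.13% of all genes. None was 2-fold lower on HFD, against 1.89% of all genes in LASS2-/- and 1.24% in WT. The member medians were 1.37 log2 in LASS2-/- and 0.24 in WT, against -0.01 and 0.02 over all genes. In LASS2-/-, Oasl1 was 4.76-fold, Rsad2 3.71-fold, Ifit1 3.66-fold, Usp18 2.74-fold, Oasl2 2.58-fold and Ifit2 2.42-fold higher on HFD. Oas1a had a log2 diet difference of 0.86, and Ifi27 and Ifit3 each had 0.08. In WT, Usp18 had a log2 diet difference of 0.96, Ifit3 0.74, Ifit1 0.70 and Rsad2 0.50, while Oasl1 had -0.57, Ifit2 -0.50 and Ifi27 -0.24. The genotype difference on HFD and the diet difference in LASS2-/- share the array labelled LASS2-/- HFD.

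**Figure D4:**
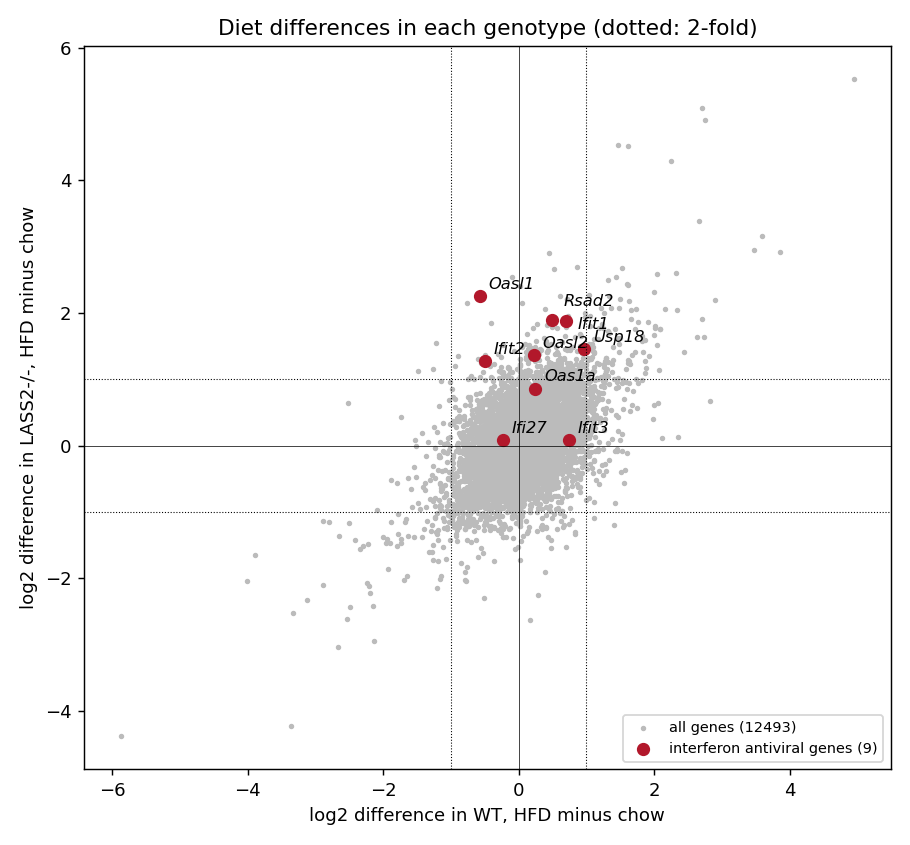
log2 diet differences, HFD minus chow, in WT (horizontal axis) and in LASS2-/- (vertical axis) for all 12493 genes in grey and the 9 antiviral genes in red, with dotted lines at 2-fold. Of the 9 genes, 6 lie above the upper line, 0 lie beyond a vertical one, and Oasl1 and Ifit2 have opposite signs on the axes.

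A fit across all 4 arrays is possible only if diet and genotype are taken as additive. The change of the genotype difference with diet is then its only residual. The moderated standard errors below draw mostly on other genes of like signal, with a prior of 12.7 degrees of freedom against 1 residual. They therefore do not measure how far a gene's own difference changed with diet, or its diet difference with genotype. For the genes called with diet below, the mean effect averages unlike differences in LASS2-/- and WT. These were 1.89 and 0.50 for Rsad2, 1.87 and 0.70 for Ifit1, and 1.46 and 0.96 for Usp18. In this limma fit 2 of the 9 genes rose with the LASS2-/- label and 0 fell, where 0.56% of all genes rose and 0.352% fell. They were Ifi27, higher by 1.14 ± 0.10 log2 (moderated standard error, limma adjusted p = 0.000245), and Oas1a, higher by 1.12 ± 0.17 (limma adjusted p = 0.00668). Oas1a did not pass with quantile normalization (limma adjusted p = 0.054) or with arrays scaled to equal medians (limma adjusted p = 0.0985). Usp18, at 0.73 ± 0.16, lay just outside the threshold (limma adjusted p = 0.0507), and it passed without probe sets ending in _x_at or _s_at (limma adjusted p = 0.0413). Oasl1 had a mean genotype effect of 0.88 with a standard error of 0.44 (limma adjusted p = 0.547), and its value on each diet differed in sign. With diet, 3 of 9 genes rose and 0 fell, where 6.26% of all genes rose and 5.04% fell. Usp18 rose by 1.21 ± 0.16 (limma adjusted p = 0.000196), Rsad2 by 1.19 ± 0.23 (limma adjusted p = 0.00386) and Ifit1 by 1.29 ± 0.26 (limma adjusted p = 0.00452). Rsad2 did not pass with robust moderation (limma adjusted p = 0.336). Without a trend in limma's moderation 0 of 9 genes passed for either effect. An unadjusted p under 0.05 was then found in 3 of 9 genes for genotype and 1 of 9 for diet. Over all 12493 genes it was found in 820 for genotype and 1783 for diet, so the diet share of the 9 genes was not above that of all genes. With the trend the counts were 5 and 6 of 9, against 1294 and 2971 of all genes.

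In the gene lists that follow, a gene under the array median on both arrays of a comparison has no measured difference and is left out of medians and of counts above 0. Of all genes measured in this way, 51.7% had a genotype difference above 0 on HFD and 52.1% on chow. In limma, 1294 of all 12493 genes had an unadjusted p under 0.05 for genotype, to be set beside the list counts below. Among the rest of the pathway, the ligands were dim. Of 7 interferon ligand genes with a probe set, 2 reached an array median on any array, Ifna1 and Ifna2. Ifna1 had log2 signals of 4.70 on LASS2-/- HFD and 6.51 on WT HFD, and of 6.80 on LASS2-/- chow and 6.43 on WT chow. Ifna2 had 6.16 on LASS2-/- HFD and 6.65 on WT HFD, and 6.78 on LASS2-/- chow and 6.48 on WT chow. Both were under the median on LASS2-/- HFD, so their HFD genotype differences of -0.32 and -0.45 are bounds. On chow these were 0.38 and 0.30. Ifnb1 had log2 signals of 5.10 on LASS2-/- HFD and 5.27 on WT HFD, and of 4.96 on LASS2-/- chow and 5.65 on WT chow, under the median of every array. Of 16 measured genes of the receptors and their signal transduction, 1 was 2-fold higher in LASS2-/- on HFD and 0 on chow, and their medians were 0.22 and 0.00. The receptor chain Ifnar2 had genotype differences of 0.13 on HFD and -0.17 on chow, the kinases Tbk1 and Jak1 had 0.26 and -0.01 on HFD, and the factor Irf3 had -0.10 on HFD. The 1 gene was Irf7, the transcription factor that amplifies interferon responses, named after its value was seen. Its log2 signal was 9.74 on LASS2-/- HFD and 8.51 on WT HFD, and 9.25 on LASS2-/- chow and 9.20 on WT chow. Limma called 0 of these 16 for genotype (3 had an unadjusted p under 0.05), and for diet 0 rose and 1 fell, the feedback inhibitor Socs3.

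Of 12 sensors of foreign nucleic acid and their adaptors that entered, 1 was 2-fold higher in LASS2-/- on HFD and 0 on chow, with medians of 0.34 and, over the 10 measured on chow, -0.01. It was Zbp1, a sensor of Z-form nucleic acid, again named after its value was seen, with a log2 signal of 8.79 on LASS2-/- HFD and 6.92 on WT HFD, and of 7.43 on LASS2-/- chow and 7.41 on WT chow. The RNA sensor Ifih1 had genotype differences of 0.41 on HFD and 0.26 on chow, and the RNA sensor Ddx58 had 0.53 and -0.78. The adaptors Mavs and Myd88 had -0.09 and 0.14 on HFD. Limma called 0 of the 12 for genotype (2 had an unadjusted p under 0.05), and for diet Ifih1 rose and Mavs fell.

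Of 37 other measured antiviral effectors, 3 were 2-fold higher in LASS2-/- on HFD and 1 on chow, and 0 were 2-fold lower on either diet. Their medians were 0.41 and 0.09, and 34 of 37 on HFD and 24 of the 36 measured on chow were above 0. With arrays scaled to equal medians 17 of these 36 were above 0 on chow and their median was -0.01. The brightest were Ifitm3, Trim25, Bst2 and Ifitm2, with HFD genotype differences of 0.29, 0.20, 0.78 and -0.10. The 3 genes on HFD, named after their values were seen, were Cmpk2 (2.66-fold), Xaf1 (2.21-fold) and Ifi27l2a (2.12-fold). Cmpk2, a mitochondrial nucleotide kinase encoded beside Rsad2, had a log2 signal of 8.71 on LASS2-/- HFD and 7.29 on WT HFD, and of 6.56 on LASS2-/- chow and 7.24 on WT chow. The 1 gene on chow was Ifi27l2b, a relative of Ifi27, at 3.19-fold. It was also the only one of the 37 that rose with genotype in limma, by 1.29 ± 0.19 (limma adjusted p = 0.0049), and 14 had an unadjusted p under 0.05. With diet 7 of the 37 rose and 0 fell.

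Of 16 GTPases and chemokines that respond to interferon-gamma and entered, 14 of the 14 measured on HFD and 16 of 16 on chow were above 0, with medians of 0.71 and 0.33. Scaling to equal medians left 13 of 16 above 0 on chow, and quantile normalization 12 of 14 on HFD and 14 of 16 on chow. Beyond 2-fold were 2 on HFD, Gbp8 and the chemokine Cxcl10, and 1 on chow, the chemokine Cxcl9. The brightest were Iigp1, Igtp, Cxcl9 and Irgm1, with HFD differences of 0.22, 0.73, 0.85 and 0.50 and chow differences of 0.05, 0.82, 1.37 and 0.26. In limma 3 rose with genotype, Gbp3, Igtp and Cxcl9, and 0 fell, and 9 had an unadjusted p under 0.05. For diet 1 rose, Gbp6.

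**Figure D5:**
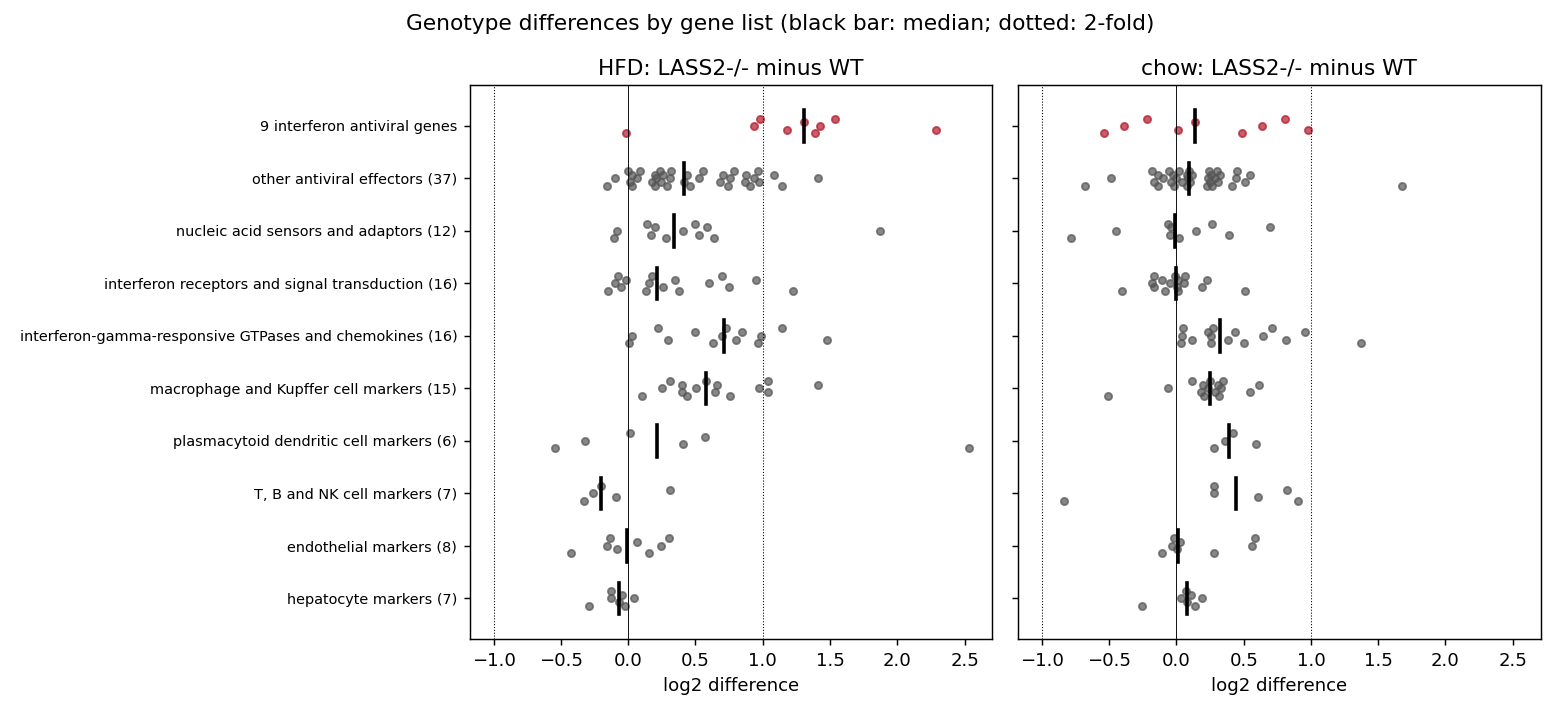
log2 genotype differences, LASS2-/- minus WT, on HFD (left) and chow (right), for the 9 antiviral genes in red and 9 other gene lists in grey with the number of genes that entered, 1 point per gene, black bars at the median and dotted lines at 2-fold. The antiviral genes have a median of 1.30 on HFD and 0.14 on chow, and no other list drawn has a median above 0.71. Genes under the array median on both arrays of a panel are not drawn.

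Markers of cells that could carry these transcripts also differed between the arrays. All 15 measured macrophage and Kupffer cell markers on HFD, and 13 of 15 on chow, had a genotype difference above 0, with medians of 0.58 and 0.25. Their summed linear signal was 41321 on LASS2-/- HFD and 27335 on WT HFD, and 33668 on LASS2-/- chow and 27343 on WT chow, and none of the 15 was below the array median on any array. On HFD 3 of the 15 were at least 2-fold higher, Cd14 (2.65-fold), Aif1 (2.06-fold) and Mpeg1 (2.06-fold), and on chow 0 were. The genotype difference of Cd14, a coreceptor for bacterial lipopolysaccharide, was 1.21 log2 larger on HFD than on chow. Csf1r, Mpeg1, Vsig4 and Cd5l, the brightest, had HFD differences of 0.40, 1.04, 0.25 and 0.51. In limma 2 rose with genotype, Mpeg1 and Lyz2, 0 fell and 12 of 15 had an unadjusted p under 0.05. With diet 1 rose, Lyz2. In whole liver, more cells of a type and more RNA per cell cannot be told apart, and the part of macrophages in the antiviral signals was not tested.

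Of 8 markers of plasmacytoid dendritic cells, a rich source of interferon, 6 entered. Their defining receptor Siglech had log2 signals of 5.82 on LASS2-/- HFD and 6.52 on WT HFD, and of 6.27 on LASS2-/- chow and 5.60 on WT chow. Genotype medians of this list were 0.21 over the 6 measured on HFD and 0.39 over the 4 measured on chow. The summed linear signal of the 6 was 3666 on LASS2-/- HFD and 1089 on WT HFD, and 776 on LASS2-/- chow and 563 on WT chow. The brightest by mean signal was Ly6d, at 11.59 on LASS2-/- HFD and 9.06 on WT HFD, and at 6.68 on LASS2-/- chow and 6.32 on WT chow, a 5.77-fold genotype difference on HFD. Most of the summed signal on LASS2-/- HFD thus came from Ly6d alone. In lymphoid cells Ly6d also marks B cell precursors. Of T, B and NK cell markers 7 of 12 entered, with genotype medians of -0.20 over the 5 measured on HFD and 0.44 over the 6 measured on chow and summed signals between 481 and 736. Medians were -0.01 and 0.02 for 8 endothelial markers and -0.07 and 0.08 for 7 hepatocyte markers, and with equal medians those on chow became -0.09 and -0.02. In these 4 lists limma called 0 genes for genotype, with an unadjusted p under 0.05 in 1 plasmacytoid and 1 hepatocyte marker and in 0 of the others. With diet Ly6d and the endothelial Cdh5 rose and Klk1 and the hepatocyte genes Cps1 and Hnf4a fell in limma, Ly6d by the most at 3.83 ± 0.35 (limma adjusted p = 6.5e-06). Their part in the antiviral signals was not tested.

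The members differed among themselves. When each gene was centred on its own mean over the arrays, the mean profile of the 9 genes was 0.98 on LASS2-/- HFD and -0.25 on WT HFD, and -0.26 on LASS2-/- chow and -0.47 on WT chow. Ifit3, Ifi27 and Oasl1 lay farthest from it, at Euclidean distances of 0.98, 0.98 and 0.93 log2, and Oasl2 lay nearest at 0.37. The 8 other genes nearest to this mean profile over the 4 arrays were Ifi27l2a, Wdfy1, Serpinb6b, Slamf9, Rragd, Gnai1, Ckap4 and Msr1, at distances from 0.11 to 0.24. Their genotype differences ran from 1.01 to 1.32 on HFD and from -0.02 to 0.39 on chow, ranges that follow from their selection on these same values. Outside the members, 53 genes lay nearer to the mean profile than Oasl2, and 2343 lay nearer than Ifit3. A profile over 4 arrays is a description of these libraries only.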

How the data were processed

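Liver RNA of 4 groups was measured on 1 array each. The authors deposited log2 signals per probe set, made with MAS5 per the submitters' processing notes. Detection calls were not analysed here, and version and scaling target were not given in the sources used here. Linear trimmed means were 495.8 to 496.0 on the arrays, and no further scaling was applied. Of 45037 probe sets, 34945 had a single symbol, updated through gene numbers on GRCm38.p6. Probe sets at or above the median of any array entered, the one with the highest mean signal stood for its gene, and differences used values floored at the array median. The number of arrays limits precision. The additive fit used limma 3.58.1 in R 4.3.3 (3 coefficients, 1 residual degree of freedom, trend, prior of 12.7 degrees of freedom, Benjamini-Hochberg over 12493 genes, threshold 0.05). Other steps ran in Python 3.11.15 with pandas 2.3.3, numpy 2.4.6 and, for drawing, matplotlib 3.10.9.

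The members and lists were chosen with earlier results of these data known. Besides the members, 10 lists held 162 genes, of which 126 entered. The text names every member, up to 4 genes of a list by mean signal, the 8 nearest profiles and Cers2. List members past 2-fold or called by limma, and Siglech and Ifnb1, were chosen after their values were seen. Alternatives were other scalings, floors, thresholds, probe set rules and moderation.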

Additional observations from a re-analysis of the deposited data

Results flagged for a closer look

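Several members had differences of opposite sign under the same contrast. The share of all genes with such a sign change was not counted, so these signs are not read as particular to the members. These are single arrays, and the differences between them were not tested. For the genotype difference, LASS2-/- minus WT, Oasl1 had 2.29 on HFD and -0.54 on chow, which is 2.83 apart. Ifit2 had 1.39 on HFD and -0.39 on chow, 1.78 apart, and Oasl2 had 0.93 on HFD and -0.22 on chow, 1.15 apart. Ifit3 was near level on HFD, with -0.02, and had 0.64 on chow, a difference of -0.65. For the diet difference, HFD minus chow, Oasl1 had 2.25 in LASS2-/- and -0.57 in WT, and Ifit2 had 1.28 in LASS2-/- and -0.50 in WT, again 2.83 and 1.78 apart by construction. Ifi27 was near level in LASS2-/-, with 0.08, and had -0.24 in WT, 0.32 apart. Groups of 1 array allow no search for outlying samples.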

How the results depend on the processing

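The counts of 6, 6 and 5 members for the genotype difference on HFD, the diet difference in LASS2-/- and the difference between diets stayed within 1.5 times under every scaling, floor, threshold and probe set rule tried. With a 1.5-fold threshold, 3 members instead of 0 were higher for genotype on chow, and 3 instead of 0 for diet in WT. In limma, 1 member instead of 2 passed for genotype with quantile normalization and with equal medians, 3 passed for genotype without probe sets ending in _x_at or _s_at, 2 instead of 3 passed for diet with robust moderation, and 0 passed for either effect without trend. No paired analysis was possible because the labels give no replicate numbers and each group holds 1 array. No array could be left out, since each is the only one of its group.

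All-gene counts depended more on the settings. With the floor at the 25th percentile, genes past 2-fold higher were 790 instead of 184 for genotype on HFD, 1156 instead of 145 on chow, 961 instead of 389 for diet in LASS2-/- and 1008 instead of 266 in WT. Lower genes were then 786 instead of 61, 633 instead of 53, 1319 instead of 236 and 850 instead of 155, in the same order, and for the difference between diets 1155 instead of 279 were higher and 1771 instead of 260 lower. This setting also admits dimmer genes. At 1.5-fold, the higher counts were 716, 710, 1267 and 963 and the lower counts 415, 419, 900 and 638, with 963 and 991 for the difference between diets. With equal medians 95 instead of 53 were lower on chow. Limma's 70 higher and 44 lower genes for genotype became 14 and 9 with quantile normalization, 11 and 11 with equal medians, 33 and 19 with no filter, 36 and 27 with the mean of probe sets and 0 without trend, where the higher count was 41 with robust moderation. For diet, 630 lower genes became 358 with equal medians, and 0 genes passed without trend. The causes were not tested.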
